A study of Homo sapiens with 9 samples.

Results

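The genes described here are 50 genes of the integrated stress response and the unfolded protein response. They were chosen by name for their roles, with earlier results of these data known. All 50 were among the 26475 genes of the table and all 50 passed the filter on low counts, as did 13784 genes in all. They fall into 7 groups by role: 10 sensors and transcription factors, 5 stress effectors, 6 enzymes of amino acid synthesis and one-carbon metabolism, 4 amino acid transporters, 6 aminoacyl-tRNA synthetases, 15 chaperones and folding factors of the endoplasmic reticulum (ER), and 4 genes of ER-associated degradation (ERAD). RNA was sequenced from hTERT_RPE1 cells, an established line of human retinal pigment epithelial cells immortalised with telomerase, 24 h after seeding, in 3 conditions of 3 libraries each. Control cells carried the empty pLKO vector and grew on fibronectin-coated glass. sh_PIP4K2B cells grew on the same glass and carried a short hairpin RNA against PIP4K2B, a lipid kinase that converts PtdIns5P, with another hairpin (#1, #2 and #3) in each library. Soft cells carried the empty vector as Control cells did and grew on a fibronectin-coated gel of 2.3 kPa. All cells were therefore transduced and plated on fibronectin, and Soft and sh_PIP4K2B cells differed from each other in both hairpin and substrate. The sample titles of Control and Soft name the empty vector, as do the authors for these cells, while their treatment label names a control hairpin.

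When translation or protein folding is disturbed, the eIF2 kinases, of which PERK (EIF2AK3) sits in the ER membrane, slow general translation while the mRNA of ATF4 is translated better. ATF4 then raises genes for amino acid import and synthesis, tRNA charging and the factors DDIT3 and ATF3, whose promoters it reaches through CARE elements. The other sensors of the ER, IRE1 (ERN1) and ATF6, act through spliced XBP1 and the cleaved part of ATF6 on chaperone and ERAD genes, often through ERSE elements. Splicing of XBP1, cleavage of ATF6 and translation of ATF4 are not seen in a count of transcripts per gene.

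Total counts per library were 22560086 to 24020799 in Control, 19217346 to 22420167 in sh_PIP4K2B and 20478070 to 21776264 in Soft, and levels are given as CPM, counts scaled to equal library totals after TMM normalisation in edgeR. PIP4K2B was at 123, 124 and 119.5 CPM in Control, 48.4, 40.9 and 36.6 CPM with hairpins #1, #2 and #3, and 119, 122 and 127 CPM in Soft (sh_PIP4K2B against Control, log2 fold change -1.54, SE 0.12, adjusted p = 3.8e-04, edgeR). The median SD of log2 CPM between libraries was 0.0771 in Control, 0.328 in sh_PIP4K2B and 0.0711 in Soft. All conditions share a single estimate of the spread in the fit. Nothing in the labels says that Control or Soft replicates came from separate cultures, so the spread within these conditions may be technical. The sh_PIP4K2B libraries each carried another hairpin, so their spread includes differences between hairpins. P-values for sh_PIP4K2B rest on the shared estimate, to which the closer Control and Soft libraries contribute. Those for Soft against Control rest on the same estimate, to which the wider sh_PIP4K2B libraries contribute. A fit of Control and Soft alone called 37 members and 70.7% of all genes. Of 10 markers of retinal pigment epithelium 6 passed the filter, with OTX2, MITF, KRT8 and KRT18 present and RPE65, RLBP1, TYR and PMEL at or near 0. The summed level of the 10 ran from 1970 to 2120 CPM in Control, 755 to 1160 in sh_PIP4K2B and 959 to 1010 in Soft. The 6 did not move together: against Control 3 had a log2 fold change above 0 and 3 below in each condition. Their median was 0.09 in sh_PIP4K2B and 0.28 in Soft. Summed over 4 genes each, markers of endothelium ran from 2.19 to 2.79 CPM in Control, 2.17 to 11.2 in sh_PIP4K2B and 7.71 to 9.29 in Soft, with CDH5 at or near 0, and markers of leukocytes from 64.2 to 68.9, 42.8 to 80.5 and 143 to 148 CPM, almost all of it CD68, with CD3E at or near 0. In Soft PECAM1, at 0.0466, 0.0439 and 0.218 CPM in Control and 4.70, 5.33 and 4.34 CPM in Soft, and CD68 (log2 fold change 1.13, SE 0.19, adjusted p = 0.0014, edgeR) rose and TEK fell (log2 fold change -1.88, SE 0.34, adjusted p = 0.0016, edgeR) by edgeR at 0.01, and the part of these markers in the results on the gel was not tested. Markers of neurons summed to 13.8 to 16.9 CPM in Control, 13.1 to 33.5 in sh_PIP4K2B and 15.3 to 19 in Soft. In these bulk libraries a change of RNA in every cell and a change in the share of cells that carry it cannot be told apart.

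To show which of these genes carry the response elements by which the pathway is known, the promoters of the 46 members with an entry in RefSeq (GRCh38.p14, 250 bases before to 50 after the start of each listed transcript) were searched on both strands. PSPH, SHMT2, SLC7A11 and PDIA3 had no entry. The CARE letters TGATGNAA were found in 11 of the 46 members (23.9%), namely ATF3, CEBPG, CHAC1, ASNS, SLC3A2, SLC7A1, GARS, AARS, MARS, NARS and HERPUD1, and in 4.46% of 27305 genes in all. The ERSE letters, CCAAT and CCACG with any 9 bases between them, were found in 8 of the 46 (17.4%), namely XBP1, HSPA5, HSP90B1, PDIA6, CALR, CANX, CRELD2 and SERP1, and in 0.0916% of all genes. The UPRE letters TGACGTGG, whose end on the opposite strand is shared with ERSE, were found in HYOU1 alone among members and in 0.927% of all genes. The windows of 30 bases below belong to the members given in detail, read 5′ to 3′ on the strand of the gene with the matched letters in capitals. A match describes the sequence and does not show binding.
ATF3, chr1:212565205-212565234, plus strand: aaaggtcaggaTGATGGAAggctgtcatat
CEBPG, chr19:33374060-33374089, plus strand: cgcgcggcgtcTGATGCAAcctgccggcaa
SLC7A1, chr13:29595663-29595692, minus strand: gggcgcactgcTGATGAAAcctggcgccgg
GARS, chr7:30594834-30594863, plus strand: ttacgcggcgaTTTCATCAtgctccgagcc
XBP1, chr22:28800598-28800627, minus strand: cgctggCCAATCGCGGAGGGCCACGaccgt
HSPA5, chr9:125241386-125241415, minus strand: ccttcaCCAATCGGCGGCCTCCACGacggg
CRELD2, chr22:49918548-49918577, plus strand: acctctCGTGGCGAACTCGGATTGGgccat
SERP1, chr3:150546705-150546734, minus strand: ctcatgCGTGGAGACAGCGAATTGGtgttt
In GARS, CRELD2 and SERP1 the letters lie on the opposite strand. Distances are to the start of a listed transcript, which need not be the outermost start of the gene. In CEBPG, GARS, CRELD2 and SERP1 the window lies within the annotated gene. The match begins 191 bases before such a start in ATF3, 42 before it in CEBPG and 33 before it in GARS, and at position 8 after it in SLC7A1. For the ERSE letters the distances before the transcript start are 52 bases in XBP1, 66 in HSPA5, 80 in CRELD2 and 232 in SERP1.

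In sh_PIP4K2B cells a small number of stress genes stood well above Control, while most members did not pass the test. ATF3, DDIT3, SESN2 and SYVN1 rose and SLC7A5 and CRELD2 fell, so 6 of 50 members were called (12.0%) against 5.54% of all genes tested. The 4 higher members are to be read against 2.76% of all genes called higher and the 2 lower members against 2.77% called lower. The median log2 fold change of the 50 members was 0.01, beside 0.05 over all genes tested. These calls rest on the whole set of libraries: the adjusted p of the 6 members lay between 0.0041 and 0.0094 in edgeR, and no member passed 0.01 without Control replicate 1, 2 or 3 or without Soft replicate 1 or 3, while 2 passed without Soft replicate 2; the share of all genes called was 0.471% to 1.15% without a Control library and 2.24% to 2.42% without a Soft library. Without any single Control library 13 members had an unadjusted p below 0.05 (18 of 50 with all libraries, against 33.2% of all genes), and DESeq2 on all libraries called 11 members, with 2066 of all 13784 genes then called.

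On the soft gel the members called differed in part from those called in sh_PIP4K2B. A call in a single comparison does not by itself show a difference between the conditions. Of the members called in Soft alone, the direct test given below called ERN1, SLC7A1, GARS and SERP1, and did not call CEBPB, ATF5 and MTHFD2. ERN1, CEBPB and SYVN1 rose and ATF5, MTHFD2, SLC7A5, SLC7A1, GARS and SERP1 fell, which makes 9 of 50 members (18.0%) against 30.6% of all genes called in this comparison. The 3 higher and 6 lower members compare with 15.8% and 14.8% of all genes. Their median log2 fold change was 0.05, beside 0.01 over all genes. CEBPB, SLC7A1, GARS and SERP1 passed 0.01 in edgeR or DESeq2 under all 17 alternative settings. Leaving out hairpin #3 raised the count to 18 members (41.7% of all genes) and a fit of the Control and Soft libraries alone raised it to 37, with 70.7% of all genes then called. Leaving out Control replicate 1 or 3 or Soft replicate 3 lowered it to these 4, and Control replicate 2 or Soft replicate 1 to 5, with ERN1 added, while 17.9% to 19.4% of all genes were called in these fits.

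Both comparisons use the same 3 Control libraries, and side by side SYVN1 was called higher in both and SLC7A5 lower in both by edgeR. The direct test of Soft against sh_PIP4K2B called 5 members higher in Soft and 7 lower, against 14.5% of all genes called higher and 15.5% called lower. ATF3, DDIT3, SESN2, SLC7A1, GARS, DNAJB9 and SERP1 were lower in Soft than in sh_PIP4K2B. ERN1, PHGDH, PDIA4, CALR and CRELD2 were higher. Of these 12, ATF3, SESN2, CRELD2 and SERP1 passed under all 17 alternatives, and without Soft replicate 1 or 3 they were the 4 left (17.0% and 16.8% of all genes). Without Soft replicate 2 the count was 6 (17.1% of all genes), and without hairpin #3 it was 20 (37.7% of all genes).

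**Figure D1:**
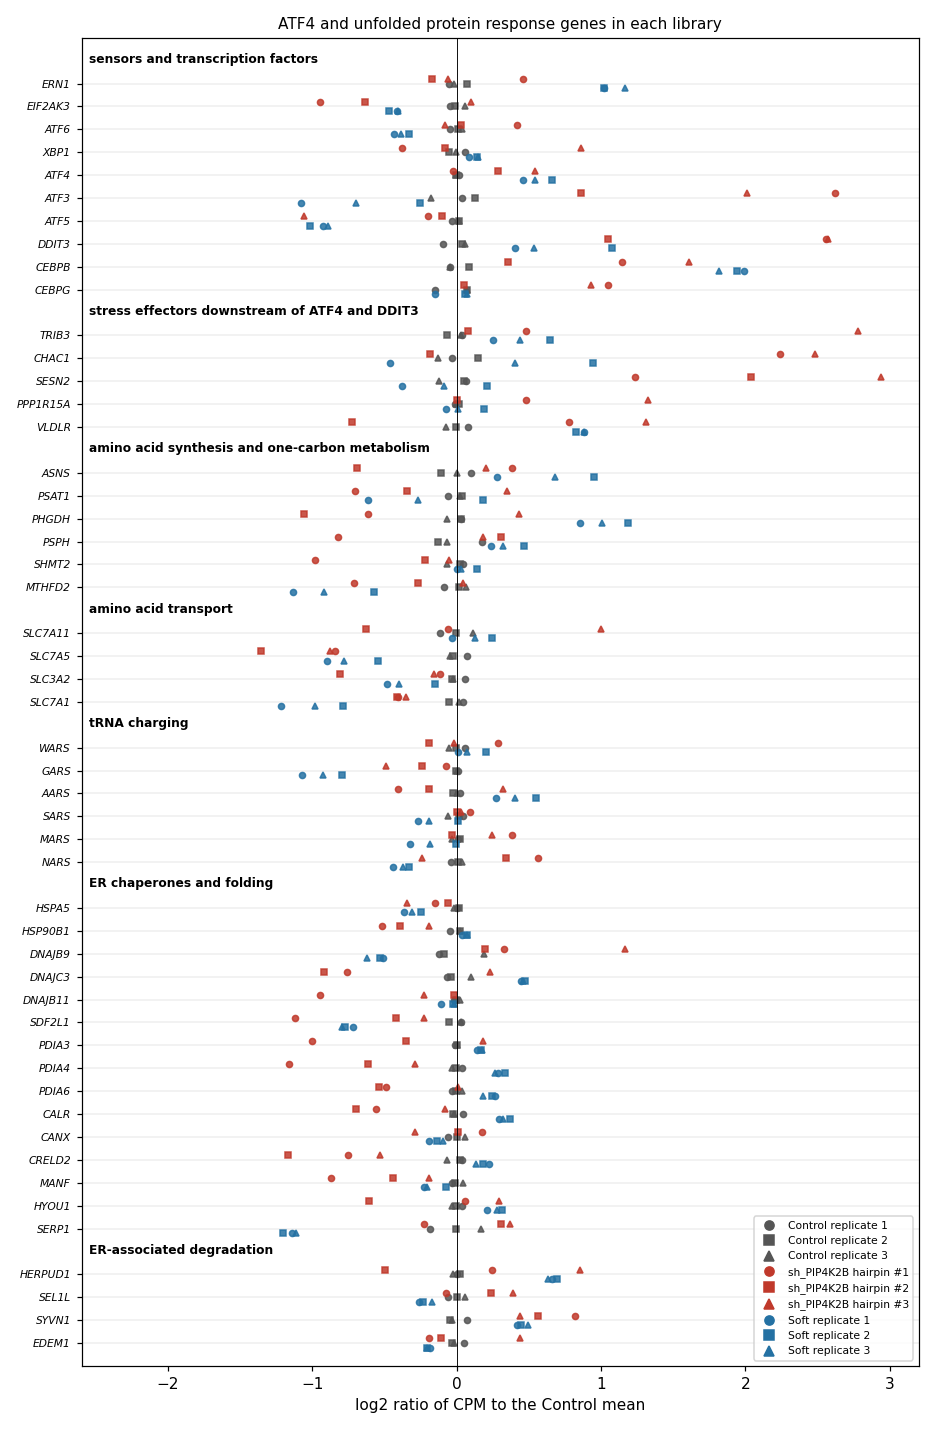
Log2 ratio of the CPM of each of the 50 members to its Control mean (horizontal axis) in each of the 9 libraries, by role; grey, red and blue points are Control, sh_PIP4K2B and Soft libraries and the shape is the replicate or hairpin. Red points are spread over 2-fold in 18 of 50 members, while grey and blue points mostly sit close together.

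Among the sensors and transcription factors, the largest values in sh_PIP4K2B were those of ATF3 and DDIT3. ATF3, a stress-induced bZIP repressor and activator at chr1:212565334-212620777, was at 10.8, 11.5 and 9.26 CPM in Control, 64.7, 19.03 and 42.3 CPM with hairpins #1, #2 and #3, and 4.97, 8.81 and 6.48 CPM in Soft. Every hairpin library lay above every Control library and every Soft library below, and the hairpins stood 6.17, 1.81 and 4.03 times above the Control mean. ATF3 rose in sh_PIP4K2B (log2 fold change 2.00, SE 0.39, adjusted p = 0.0094, edgeR), was at a log2 fold change of -0.64 (SE 0.39, adjusted p = 0.21, edgeR) in Soft, and was lower in Soft than in sh_PIP4K2B by the direct test (log2 fold change -2.64, SE 0.40, adjusted p = 7.2e-04, edgeR). The direct difference passed 0.01 under all 17 alternative settings, whereas the rise in sh_PIP4K2B passed under 6 of them, with an adjusted p of up to 0.049.

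DDIT3 encodes CHOP, the factor that links prolonged ER stress to cell death, and lies at chr12:57516588-57521737. It was at 8.85, 9.70 and 9.83 CPM in Control, 55.8, 19.6 and 56.4 CPM with the hairpins and 12.5, 19.9 and 13.7 CPM in Soft. Hairpins #1 and #3 were alike and far above the rest, and hairpin #2 lay within the range of Soft. DDIT3 rose in sh_PIP4K2B (log2 fold change 2.21, SE 0.37, adjusted p = 0.0048, edgeR) and had a log2 fold change of 0.70 (SE 0.36, adjusted p = 0.14, edgeR) in Soft, although all Soft libraries lay above all Control libraries. Soft was lower than sh_PIP4K2B (log2 fold change -1.51, SE 0.36, adjusted p = 0.0072, edgeR). Of the exon bases of DDIT3 24.3% overlap a gene on the opposite strand, and the sources used here do not say whether counting used strand.

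ATF4 itself, at chr22:39519695-39522683, was the most abundant factor of this group, at 249, 245 and 246 CPM in Control, 243, 301 and 359 CPM with the hairpins and 339, 391 and 359.6 CPM in Soft. Hairpin #1 lay just below Control and the others above it, and Soft libraries were all above Control. Its log2 fold change was 0.29 (SE 0.14, adjusted p = 0.20, edgeR) in sh_PIP4K2B and 0.56 (SE 0.14, adjusted p = 0.011, edgeR) in Soft. The Soft value missed the threshold and passed it under 7 of 17 alternatives. Of the 75-base stretches of the ATF4 transcript 14.6% also occur in other genes, mainly its processed copies.

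CEBPB, a bZIP factor that pairs with ATF4 and DDIT3, had its highest level on the gel. It was at 57.4, 62.8 and 57.4 CPM in Control, 131, 75.9 and 181 CPM with the hairpins and 235, 227 and 209 CPM in Soft (chr20:50190830-50192668). The 3 conditions did not overlap, and hairpin #2 was the closest to Control. CEBPB rose in Soft (log2 fold change 1.92, SE 0.26, adjusted p = 3.6e-04, edgeR), a 3.78-fold ratio of means. In sh_PIP4K2B its log2 fold change was 1.13 (SE 0.25, adjusted p = 0.017, edgeR), and the direct difference was 0.79 (SE 0.25, adjusted p = 0.028, edgeR).

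Its relative CEBPG, a partner of ATF4 on CARE elements, was at 19.7, 22.9 and 22.9 CPM in Control, 45.2, 22.6 and 41.7 CPM with the hairpins and 19.7, 22.7 and 22.9 CPM in Soft. Hairpins #1 and #3 were the highest of the 9 libraries, while hairpin #2 sat among the Control libraries. The log2 fold changes were 0.74 (SE 0.23, adjusted p = 0.052, edgeR) in sh_PIP4K2B and -0.00 (SE 0.23, adjusted p = 0.99, edgeR) in Soft.

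ATF5, whose mRNA is under the same translational control as ATF4, was at 58.3, 60.1 and 60.1 CPM in Control, 51.9, 55.4 and 28.6 CPM with the hairpins and 31.4, 29.4 and 32.1 CPM in Soft. Hairpin #3 and all Soft libraries were near each other and well below the rest. ATF5 fell in Soft (log2 fold change -0.94, SE 0.21, adjusted p = 0.0054, edgeR) and had a log2 fold change of -0.39 (SE 0.21, adjusted p = 0.22, edgeR) in sh_PIP4K2B. The fall in Soft passed under 11 of 17 alternatives.

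Of the 3 ER sensors, ERN1 rose on the gel, while EIF2AK3 and ATF6 were below Control in every Soft library without passing the test. ERN1, encoding IRE1, was at 3.03, 3.29 and 3.10 CPM in Control, 4.33, 2.79 and 3.02 CPM with the hairpins and 6.38, 6.38 and 7.06 CPM in Soft, and per kilobase of transcript it was the lowest of all members in Control (0.398 CPM per kb). All Soft libraries were above all others, and of the hairpins #1 alone was above Control. ERN1 rose in Soft (log2 fold change 1.07, SE 0.19, adjusted p = 0.0016, edgeR), was at a log2 fold change of 0.11 (SE 0.19, adjusted p = 0.74, edgeR) in sh_PIP4K2B, and was higher in Soft than in sh_PIP4K2B (log2 fold change 0.97, SE 0.19, adjusted p = 0.0029, edgeR).

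EIF2AK3, encoding PERK, was at 29.1, 29.8 and 31.2 CPM in Control, 15.6, 19.3 and 32.2 CPM with the hairpins and 22.5, 21.7 and 22.6 CPM in Soft. Hairpin #1 was the lowest library and hairpin #3 the highest, and all Soft libraries were below Control. Its log2 fold change was -0.43 (SE 0.22, adjusted p = 0.22, edgeR) in sh_PIP4K2B and -0.43 (SE 0.22, adjusted p = 0.14, edgeR) in Soft.

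ATF6 was at 121, 126 and 128 CPM in Control, 167, 128 and 118 CPM with the hairpins and 92.4, 99.6 and 95.9 CPM in Soft. All Soft libraries were the lowest, and hairpin #1 the highest. Its log2 fold change was 0.14 (SE 0.13, adjusted p = 0.50, edgeR) in sh_PIP4K2B and -0.38 (SE 0.13, adjusted p = 0.039, edgeR) in Soft. XBP1, the factor spliced by IRE1, was at 93.2, 86.0 and 89.0 CPM in Control, 68.7, 84.6 and 162 CPM with the hairpins and 95.0, 98.6 and 99.2 CPM in Soft. Hairpin #3 alone stood apart, and the other hairpins were at or below Control. The log2 fold changes of XBP1 were 0.24 (SE 0.26, adjusted p = 0.57, edgeR) in sh_PIP4K2B and 0.13 (SE 0.26, adjusted p = 0.72, edgeR) in Soft.

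**Figure D2:**
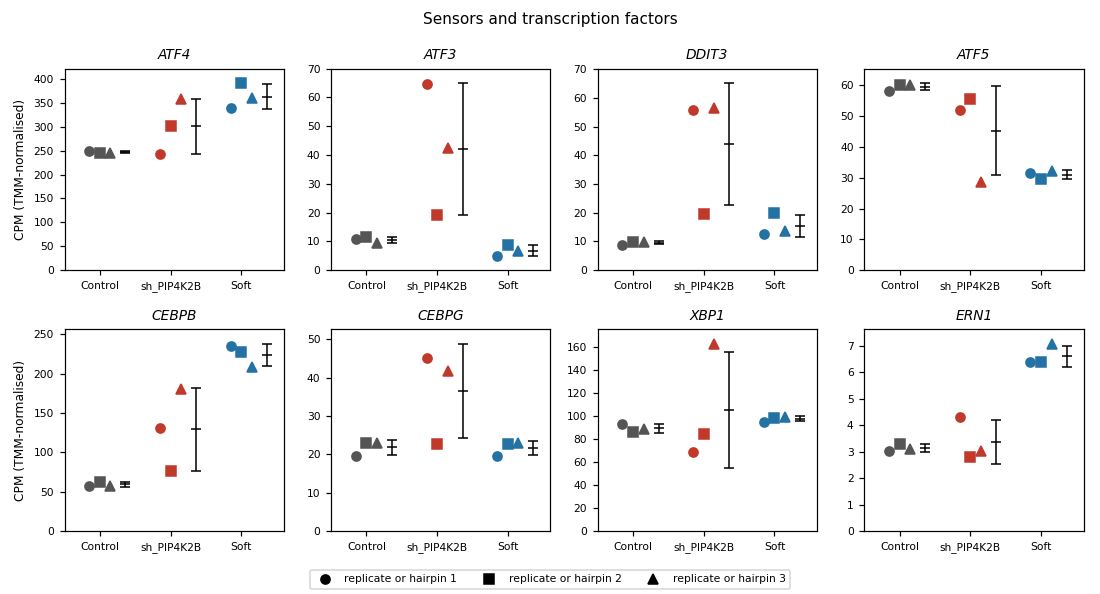
CPM of 8 sensors and transcription factors (vertical axes, linear from 0) in Control, sh_PIP4K2B and Soft; each point is a library, its shape the replicate or hairpin, and the bar beside it the mean with the SD of 3 libraries. ATF3 and DDIT3 are highest with hairpins #1 and #3, and CEBPB and ERN1 are highest in the Soft libraries.

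The stress effectors downstream of ATF4 and DDIT3 had positive log2 fold changes in sh_PIP4K2B in 5 of 5 members, with a median of 1.63. Above 0 there were 7523 of all 13784 genes. Of the 5, only 1 passed the test, and 2.76% of all genes were called higher. In Soft none of the 5 passed in edgeR or DESeq2 (30.6% and 39.5% of all genes). An unadjusted p below 0.05 was found in 0 (54.3% of all genes), and the median of the 5 was 0.40. Hairpins differed most in this group: by hairpin the median log2 ratio to Control was 0.78 with #1, 0.00 with #2 and 2.47 with #3, and hairpin #3 was the highest in all 5.

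SESN2, a stress-induced inhibitor of mTORC1, lies at chr1:28259518-28282491 and was at 28.9, 28.6 and 25.4 CPM in Control, 65.1, 114 and 212 CPM with the hairpins and 21.2, 32.0 and 26.0 CPM in Soft. All hairpins were clear of Control, #1 the lowest and #3 the highest, while Soft overlapped Control. SESN2 rose in sh_PIP4K2B (log2 fold change 2.24, SE 0.37, adjusted p = 0.0046, edgeR), was at a log2 fold change of -0.07 (SE 0.36, adjusted p = 0.89, edgeR) in Soft, and was lower in Soft than in sh_PIP4K2B (log2 fold change -2.30, SE 0.37, adjusted p = 9.3e-04, edgeR), the latter under all 17 alternatives.

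SESN2 and ATF3 are also known targets of p53, and the p53 target list moved in the same comparisons. Of its 12 genes 6 rose and none fell in sh_PIP4K2B in edgeR, and 1 rose and 6 fell in Soft. Of all genes tested 2.76% were called higher and 2.77% lower in sh_PIP4K2B, and 15.8% and 14.8% in Soft. Summed over the list, Control libraries held 1600 to 1630 CPM, hairpin libraries 2460 to 7520 CPM and Soft libraries 873 to 919 CPM, and its part in the values of SESN2 and ATF3 was not tested. The main p53 target CDKN1A was at 777, 773 and 744 CPM in Control, 5866, 3888 and 1117 CPM with hairpins #1, #2 and #3, and 342, 372 and 355 CPM in Soft. By hairpin the median log2 ratio of the list to Control was 1.42 with #1, 1.57 with #2 and 0.79 with #3. The largest called rise of the list in sh_PIP4K2B was that of BTG2 (log2 fold change 2.69), and in Soft BBC3 rose (0.93) and FAS fell furthest (-1.83), all in edgeR.

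TRIB3, the pseudokinase that restrains ATF4 and AKT, was at 21.8, 20.3 and 21.8 CPM in Control, 29.7, 22.5 and 146 CPM with the hairpins and 25.4, 33.4 and 28.9 CPM in Soft. Hairpin #3 was 6.86 times the Control mean and the others lay just above Control. Its log2 fold change in sh_PIP4K2B was 1.63 (SE 0.59, adjusted p = 0.090, edgeR). CHAC1, which degrades glutathione, was at 5.45, 6.19 and 5.11 CPM in Control, 26.4, 4.91 and 31.2 CPM with the hairpins and 4.06, 10.8 and 7.38 CPM in Soft. Hairpins #1 and #3 were high and hairpin #2 was just below the Control libraries. CHAC1 had a log2 fold change of 1.90 (SE 0.58, adjusted p = 0.052, edgeR) in sh_PIP4K2B. PPP1R15A (GADD34, which directs dephosphorylation of eIF2) was at 132, 134 and 132 CPM in Control, 185, 133 and 332 CPM with the hairpins and 126, 151 and 134 CPM in Soft. Again hairpin #2 was at the Control level and #3 the highest. VLDLR, a lipoprotein receptor, was at 9.17, 8.65 and 8.26 CPM in Control, 14.9, 5.25 and 21.6 CPM with the hairpins and 16.0, 15.4 and 16.0 CPM in Soft. Its hairpins lay on both sides of Control and its Soft libraries all above (log2 fold change in Soft 0.86 (SE 0.38, adjusted p = 0.093, edgeR)).

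In the genes of amino acid synthesis and one-carbon metabolism no member passed in sh_PIP4K2B in edgeR or DESeq2, and 0 of 6 had an unadjusted p below 0.05. Their median log2 fold change there was -0.22, with 5 of 6 below 0. With hairpin #1 the group median was -0.71, with #2 -0.31 and with #3 0.19. In Soft 1 of 6 was called (16.7%), against 30.6% of all genes.

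MTHFD2, a mitochondrial enzyme of the folate cycle, was at 101, 109 and 113 CPM in Control, 65.7, 89.1 and 111 CPM with the hairpins and 49.1, 72.4 and 56.8 CPM in Soft. Soft was below Control in every library, with hairpin #1 near Soft and hairpin #3 within Control. MTHFD2 fell in Soft (log2 fold change -0.86, SE 0.20, adjusted p = 0.0065, edgeR), and 36.8% of its exon bases overlap a gene on the opposite strand. The serine synthesis enzyme PHGDH pointed the other way on the gel, with 57.2, 57.2 and 53.5 CPM in Control, 36.5, 26.9 and 75.6 CPM with the hairpins and 101, 128 and 112 CPM in Soft. All Soft libraries were the highest of the 9, and hairpins #1 and #2 the lowest. Its log2 fold change was 1.02 (SE 0.31, adjusted p = 0.023, edgeR) in Soft, passing under 4 of 17 alternatives, and the direct test placed Soft above sh_PIP4K2B (log2 fold change 1.30, SE 0.31, adjusted p = 0.0084, edgeR).

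PSAT1, the next enzyme of serine synthesis, was at 63.3, 67.9 and 67.2 CPM in Control, 40.6, 52.2 and 84.2 CPM with the hairpins and 43.3, 74.9 and 54.8 CPM in Soft, with both treated conditions spread across Control. ASNS, asparagine synthetase and a classic ATF4 target, was at 27.1, 23.5 and 25.3 CPM in Control, 33.1, 15.7 and 29.1 CPM with the hairpins and 30.7, 49.0 and 40.6 CPM in Soft. Soft lay above Control and hairpin #2 below (log2 fold change in Soft 0.66 (SE 0.26, adjusted p = 0.061, edgeR)). Nearly all of its transcript (99.5% of 75-base stretches) also occurs in an annotated readthrough gene, so its count depends on how shared reads were assigned. PSPH, which completes serine synthesis, had a log2 fold change of -0.03 in sh_PIP4K2B and 0.35 in Soft, and SHMT2, the mitochondrial enzyme that passes carbon from serine to folate, one of -0.37 and 0.06, none of them called.

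Among the amino acid transporters SLC7A5 and SLC7A1 were lower on the gel, and SLC7A5 was lower with the hairpins too. SLC7A5, the light chain of the leucine transporter LAT1 at chr16:87830023-87869507, was at 743, 695 and 687 CPM in Control, 395, 276 and 386 CPM with the hairpins and 379, 485 and 413 CPM in Soft. Every treated library lay below every Control library, and hairpin #2 was the lowest. It fell in sh_PIP4K2B (log2 fold change -1.01, SE 0.16, adjusted p = 0.0041, edgeR) and in Soft (log2 fold change -0.73, SE 0.16, adjusted p = 0.0047, edgeR), and the direct difference was 0.27 (SE 0.16, adjusted p = 0.19, edgeR). Scaling by library size alone left neither call.

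SLC7A1, the cationic amino acid transporter CAT1, was at 154, 144 and 151 CPM in Control, 113, 112 and 117 CPM with the hairpins and 64.3, 86.4 and 75.7 CPM in Soft. The hairpins were within a few CPM of each other, below Control and above Soft. SLC7A1 fell in Soft (log2 fold change -0.99, SE 0.12, adjusted p = 1.9e-04, edgeR) and was lower there than in sh_PIP4K2B (log2 fold change -0.60, SE 0.12, adjusted p = 0.0029, edgeR). In sh_PIP4K2B its log2 fold change was -0.39 (SE 0.12, adjusted p = 0.047, edgeR). SLC3A2, the heavy chain shared by LAT1 and xCT, was at 306, 288 and 289 CPM in Control, 271, 168 and 264 CPM with the hairpins and 210.4, 265 and 223 CPM in Soft, below Control in all treated libraries but not called in either condition. SLC7A11, the cystine carrier xCT, was at 53.2, 57.6 and 62.3 CPM in Control, 55.3, 37.3 and 116 CPM with the hairpins and 56.4, 68.5 and 62.9 CPM in Soft. Hairpin #3 was 2.00 times the Control mean, and hairpin #2 was the lowest library.

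**Figure D3:**
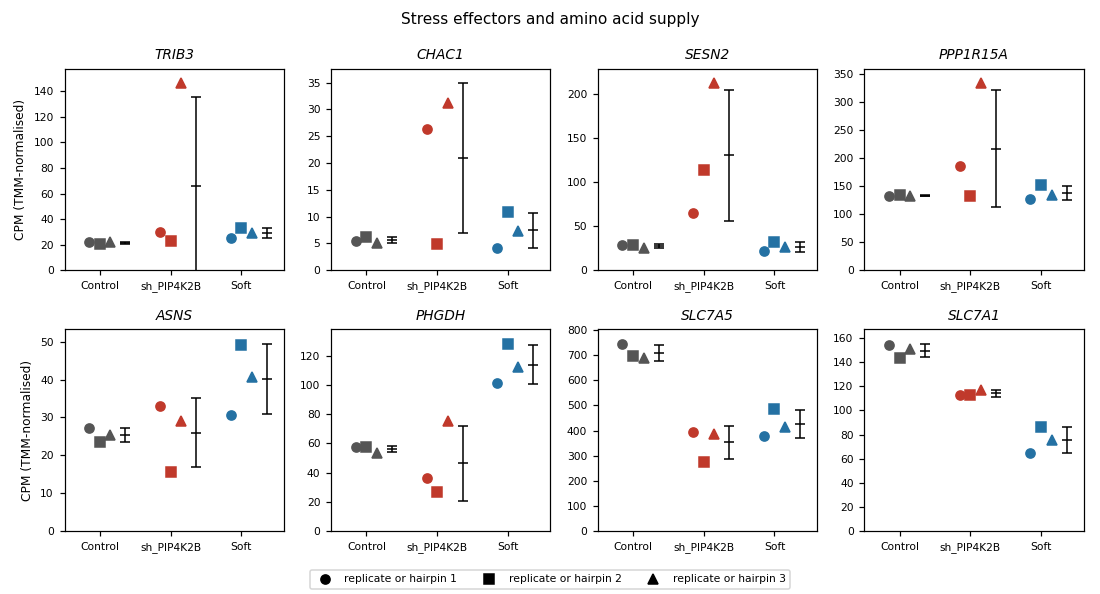
CPM of 4 stress effectors and 4 genes of amino acid supply (vertical axes, linear from 0) in Control, sh_PIP4K2B and Soft; each point is a library, its shape the replicate or hairpin, and the bar beside it the mean with the SD of 3 libraries. Hairpin #3 is the highest point in TRIB3, CHAC1, SESN2 and PPP1R15A, and SLC7A5 and SLC7A1 are below Control in all 6 treated libraries.

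The 6 aminoacyl-tRNA synthetases moved least with the hairpins: none was called in sh_PIP4K2B in edgeR or DESeq2, 0 had an unadjusted p below 0.05, none differed by more than 2-fold between hairpins, and the median log2 fold change was 0.04. In Soft, GARS, the glycyl-tRNA synthetase at chr7:30580533-30634033, was the 1 called. It was at 352, 349 and 350.5 CPM in Control, 333, 297 and 249 CPM with the hairpins and 167, 202 and 184 CPM in Soft. The 3 conditions formed separate steps, Soft lowest. GARS fell in Soft (log2 fold change -0.92, SE 0.13, adjusted p = 4.6e-04, edgeR) and was lower there than in sh_PIP4K2B (log2 fold change -0.67, SE 0.13, adjusted p = 0.0028, edgeR). AARS was at 143, 138 and 141 CPM in Control and 171, 206 and 187 CPM in Soft, the opposite direction to GARS, without passing the test (log2 fold change 0.41 (SE 0.17, adjusted p = 0.077, edgeR)). NARS was at 166, 172 and 175 CPM in Control, 253, 217 and 145 CPM with the hairpins and 126, 136 and 132 CPM in Soft, with hairpins #1 and #2 above Control and Soft below it. WARS, SARS and MARS had log2 fold changes of 0.10, -0.15 and -0.16 in Soft, and their Soft libraries overlapped Control. All 6 synthetases were highest in Soft replicate 2 among the Soft libraries, as were all 4 transporters and all 6 synthesis enzymes, whereas Soft replicate 2 was the highest of the 3 in 35.4% of all genes.

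The ER chaperones and folding factors were mostly below Control with the hairpins. Of the 15 members 13 had a log2 fold change below 0 in sh_PIP4K2B, as did 6261 of all 13784 genes. The median of the 15 was -0.35, and 1 was called (6.67%), against 5.54% of all genes. All 3 hairpins lay below all Control libraries in 7 of the 15, namely HSPA5, HSP90B1, SDF2L1, PDIA4, CALR, CRELD2 and MANF, against 16.7% of all genes. By hairpin the median log2 ratio was -0.56 with #1, -0.42 with #2 and -0.19 with #3. In Soft 8 of the 15 had a log2 fold change above 0, as did 6994 of all 13784 genes. The median of the 15 there was 0.06, and 1 was called (6.67%), against 30.6% of all genes.

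HSPA5, encoding the master chaperone BiP at chr9:125234853-125241382, was at 1253, 1261 and 1237 CPM in Control, 1125, 1199 and 985 CPM with the hairpins and 972, 1054 and 1011 CPM in Soft. Control was the highest condition without overlap, and hairpin #3 was the lowest hairpin, unlike in most members. HSPA5 had a log2 fold change of -0.18 (SE 0.12, adjusted p = 0.31, edgeR) in sh_PIP4K2B and -0.30 (SE 0.12, adjusted p = 0.056, edgeR) in Soft, and DESeq2 called the latter.

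CRELD2, an ER factor known to be induced by misfolded proteins, at chr22:49918167-49927540, was at 56.0, 55.4 and 52.0 CPM in Control, 32.3, 24.2 and 37.7 CPM with the hairpins and 63.7, 61.9 and 59.8 CPM in Soft. All hairpins were below and all Soft libraries above Control. It fell in sh_PIP4K2B (log2 fold change -0.80, SE 0.15, adjusted p = 0.0084, edgeR), had a log2 fold change of 0.18 (SE 0.15, adjusted p = 0.34, edgeR) in Soft, and was higher in Soft than in sh_PIP4K2B (log2 fold change 0.98, SE 0.15, adjusted p = 7.6e-04, edgeR), the last under all 17 alternatives.

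PDIA4, a disulphide isomerase, was at 386, 374 and 368 CPM in Control, 168, 246 and 308 CPM with the hairpins and 458, 474 and 452 CPM in Soft. The 3 conditions did not overlap, with the hairpins lowest and Soft highest. CALR, the calcium-binding lectin chaperone calreticulin and the most abundant member per kilobase in Control (1063 CPM per kb), was at 2079, 1984 and 1997 CPM in Control, 1369, 1246 and 1908 CPM with the hairpins and 2474, 2611 and 2526 CPM in Soft. It had the same order of conditions. Soft exceeded sh_PIP4K2B in PDIA4 (log2 fold change 0.94, SE 0.19, adjusted p = 0.0033, edgeR) and in CALR (log2 fold change 0.75, SE 0.17, adjusted p = 0.0052, edgeR), while against Control neither was called by edgeR on all libraries in either condition, and DESeq2 called PDIA4 lower in sh_PIP4K2B.

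Without hairpin #3 the fit called 13 members in sh_PIP4K2B, 4 higher and 9 lower (12.7% of all genes called), and the lower ones then included the folding genes DNAJC3, PDIA4, PDIA6, CALR, CRELD2 and MANF. Without hairpin #2 it called 10 (14.4% of all genes), of which 8 were higher and included CEBPB, CEBPG, CHAC1 and VLDLR. Without hairpin #1 it called 5 (11.9% of all genes), with ATF3 no longer among them.

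SERP1, which stabilises proteins entering the ER and lies at chr3:150541998-150603228, was the member that fell furthest on the gel. It was at 129, 146 and 165 CPM in Control, 125, 181 and 189.9 CPM with the hairpins and 66.6, 63.8 and 67.9 CPM in Soft. The Soft libraries were tightly grouped under all others, and the hairpins overlapped Control. SERP1 fell in Soft (log2 fold change -1.15, SE 0.16, adjusted p = 4.9e-04, edgeR) and was lower there than in sh_PIP4K2B (log2 fold change -1.32, SE 0.16, adjusted p = 2.7e-04, edgeR). DNAJB9, a cochaperone of BiP, was at 23.0, 23.6 and 28.4 CPM in Control, 31.4, 28.6 and 56.0 CPM with the hairpins and 17.6, 17.3 and 16.3 CPM in Soft. Hairpins were above and Soft below Control without overlap, hairpin #2 by little, and the direct test was passed (log2 fold change -1.18, SE 0.24, adjusted p = 0.0032, edgeR) where those against Control were not.

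The remaining folding genes were not called by the main edgeR fit in any comparison. With other settings on all libraries, edgeR called SDF2L1 lower in Soft without the filter on low counts and with RLE scaling. With upper quartile scaling it called PDIA6 higher in Soft than in sh_PIP4K2B. DESeq2 called HSP90B1 lower in sh_PIP4K2B, SDF2L1 lower in Soft, and HSP90B1, DNAJC3 and PDIA6 higher in Soft than in sh_PIP4K2B. In the main fit the log2 fold changes of the remaining folding genes in sh_PIP4K2B ran from -0.54 in SDF2L1 to -0.02 in CANX. In Soft they ran from -0.76 in SDF2L1 to 0.46 in DNAJC3. SDF2L1, which works with BiP, was at 25.6, 24.1 and 25.6 CPM in Control, 11.6, 18.8 and 21.5 CPM with the hairpins and 15.3, 14.7 and 14.4 CPM in Soft, below Control in all treated libraries (Soft, adjusted p = 0.011, edgeR). DNAJC3, a BiP cochaperone that also inhibits PERK, was at 109, 111 and 122 CPM in Control, 67.5, 60.5 and 134 CPM with the hairpins and 155, 159 and 157 CPM in Soft. Hairpins #1 and #2 were low and all Soft libraries high. HSP90B1 (GRP94), PDIA3, PDIA6, MANF, HYOU1, DNAJB11 and the lectin chaperone CANX lay at 0.778, 0.806, 0.802, 0.718, 0.973, 0.787 and 0.985 of the Control mean in sh_PIP4K2B and at 1.04, 1.12, 1.17, 0.891, 1.20, 0.966 and 0.907 in Soft, as ratios of mean CPM.

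Of the ERAD genes SYVN1 rose in both conditions. SYVN1, the ubiquitin ligase HRD1 at chr11:65121780-65134532, was at 51.4, 47.5 and 47.9 CPM in Control, 86.5, 72.3 and 66.3 CPM with the hairpins and 65.3, 66.7 and 68.8 CPM in Soft. All treated libraries lay above Control. It rose in sh_PIP4K2B (log2 fold change 0.62, SE 0.11, adjusted p = 0.0079, edgeR) and in Soft (log2 fold change 0.45, SE 0.11, adjusted p = 0.0097, edgeR), each under 8 of 17 alternatives. SEL1L, its partner, was at 121, 126 and 131 CPM in Control, 119, 149 and 165 CPM with the hairpins and 105, 107 and 112 CPM in Soft, and was not called in either condition. HERPUD1, which recruits the complex, was at 55.4, 56.3 and 54.2 CPM in Control, 65.6, 39.3 and 99.95 CPM with the hairpins and 87.5, 89.5 and 85.9 CPM in Soft. Soft was clearly above Control, and the hairpins lay on both sides of it (Soft, log2 fold change 0.66 (SE 0.26, adjusted p = 0.063, edgeR)). EDEM1, which passes misfolded glycoproteins on, had log2 fold changes of 0.08 in sh_PIP4K2B and -0.20 in Soft, neither called.

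**Figure D4:**
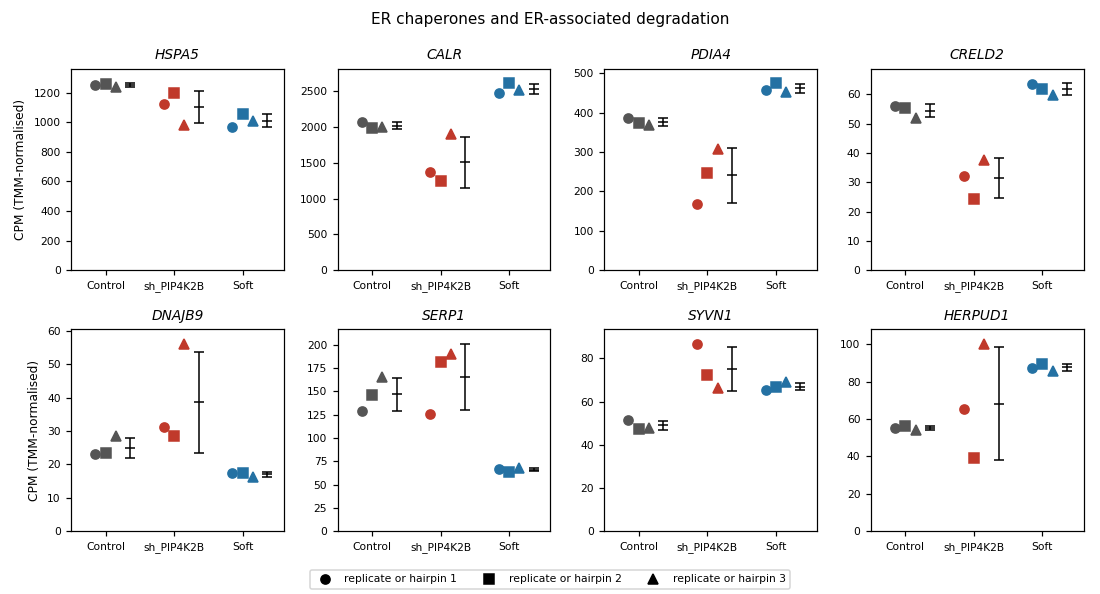
CPM of 6 ER chaperone and folding genes and 2 ERAD genes (vertical axes, linear from 0) in Control, sh_PIP4K2B and Soft; each point is a library, its shape the replicate or hairpin, and the bar beside it the mean with the SD of 3 libraries. PDIA4, CALR and CRELD2 are below Control with every hairpin and above it in Soft, and SERP1 is lowest in the 3 Soft libraries.

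Counted by library, all 3 hairpins were above all Control libraries in 7 members (17.4% of all genes) and below them in 12 (16.7% of all genes). Those above were ATF3, DDIT3, CEBPB, TRIB3, SESN2, DNAJB9 and SYVN1. All 3 Soft libraries were above all Control libraries in 21 members and below them in 18, against 40.4% and 39.1% of all genes.

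The hairpins differed among themselves. More than 2-fold above the Control mean were 6 members with hairpin #1, 2 with #2 and 10 with #3, against 7.33%, 4.13% and 7.69% of all genes. More than 2-fold below were 3, 3 and 1 members, against 10.1%, 3.48% and 4.66% of all genes. DDIT3 and SESN2 were more than 2-fold above the Control mean with every hairpin, as were 1.03% of all genes, and no member was more than 2-fold below it with every hairpin (0.370% of all genes). Hairpin #3 was the highest of the 3 in 32 of 50 members (64%) and in 34.3% of all genes, and hairpin #2 in 4 members (8%) and in 29.4% of all genes. The 14 members highest with hairpin #1 included ATF3, CEBPG, ERN1, SYVN1 and 5 of the 6 synthetases. The hairpins spread over more than 2-fold in 36% of members and in 28.7% of all genes, from 5 of 5 stress effectors to none of the 6 synthetases. Of the hairpins, PIP4K2B itself was lowest with #3 and highest with #1.

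**Figure D5:**
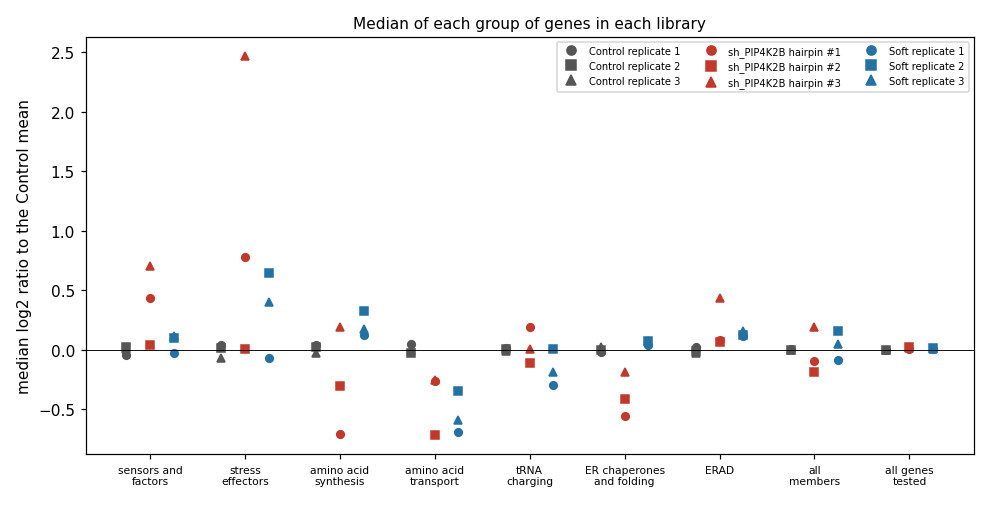
Median log2 ratio to the Control mean (vertical axis) of each group of members, of all 50 members and of all genes tested, in each of the 9 libraries; colour is the condition and shape the replicate or hairpin. The stress effectors stand at 2.47 with hairpin #3, 0.78 with #1 and 0.00 with #2, and the ER chaperones are below 0 with all 3 hairpins.

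Set by promoter letters, the 11 members with CARE were at a median log2 fold change of 0.21 with the hairpins (1 called higher, none lower) and -0.16 in Soft (none called higher, 2 lower). The 8 members with ERSE had medians of -0.25 in sh_PIP4K2B (1 lower) and 0.09 in Soft (1 lower). The 26 with a promoter entry and no match had medians of 0.06 and -0.06. Within each of these sets the members ranged on both sides of 0, as CARE holders did from -0.99 in SLC7A1 to 0.66 in HERPUD1 on the gel. Of all genes tested 2.76% were called higher and 2.77% lower with the hairpins, and 15.8% and 14.8% in Soft.

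Other genes of the same pathways gave further values, on lists written by role with earlier results of these data known. GDF15 is on both the list of other ATF4 targets and the p53 target list. Counts called in all of these lists are to be read against the shares over all genes tested. These were 2.76% higher and 2.77% lower in sh_PIP4K2B, and 15.8% higher and 14.8% lower in Soft. Of 24 other ATF4 targets tested out of 27, 2 rose and 1 fell in sh_PIP4K2B, and 4 rose and 5 fell in Soft. DDIT4, an mTORC1 inhibitor also known as REDD1, led the rises in both: it was at 12.7, 11.2 and 11.7 CPM in Control, 48.5, 52.5 and 41.0 CPM with the hairpins and 110.2, 106 and 106 CPM in Soft (sh_PIP4K2B, log2 fold change 1.99, SE 0.12, adjusted p = 8.0e-05, edgeR; Soft, log2 fold change 3.18, SE 0.12, adjusted p = 1.1e-06, edgeR). Unlike SESN2 and TRIB3, its 3 hairpins were close together. PYCR1, an enzyme of proline synthesis, fell in sh_PIP4K2B (log2 fold change -0.96, SE 0.18, adjusted p = 0.0080, edgeR) and in Soft (log2 fold change -0.80, SE 0.18, adjusted p = 0.0053, edgeR). The largest fall of this list in Soft was that of IARS, the cytosolic isoleucyl-tRNA synthetase (log2 fold change -1.02, SE 0.15, adjusted p = 4.8e-04, edgeR).

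Of 11 genes on a list of other eIF2 kinases, eIF2, eIF2B and related genes, 1 rose in sh_PIP4K2B and 3 fell in Soft. PPP1R15B, the constitutive counterpart of PPP1R15A, which likewise directs dephosphorylation of eIF2, was at 48.8, 50.3 and 52.2 CPM in Control and 126, 86.2 and 96.7 CPM with the hairpins (log2 fold change 1.03 (SE 0.14, adjusted p = 0.0018, edgeR)). EIF2S1, the eIF2 subunit that is phosphorylated, fell in Soft from 148, 149 and 161 CPM to 72.9, 70.2 and 72.5 CPM (log2 fold change -1.09, SE 0.12, adjusted p = 1.2e-04, edgeR).

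Of 8 other cytosolic synthetases none was called in sh_PIP4K2B in edgeR (2 at an unadjusted p below 0.05, 1 in DESeq2), and in Soft 1 rose (QARS, log2 fold change 0.50, SE 0.09, adjusted p = 0.0014, edgeR) and 4 fell, most of all FARSB (log2 fold change -1.53, SE 0.19, adjusted p = 2.4e-04, edgeR). Of 25 other ER folding and translocation genes none was called in sh_PIP4K2B in edgeR (9 at an unadjusted p below 0.05, 3 in DESeq2), and in Soft 2 rose and 5 fell. SSR3, a subunit of the translocon-associated complex, fell from 700.0, 726 and 782 CPM in Control to 181, 178 and 176 CPM in Soft (log2 fold change -2.04, SE 0.15, adjusted p = 1.7e-05, edgeR), more than any member. FKBP2 had the largest rise of that list in Soft (log2 fold change 0.68, SE 0.09, adjusted p = 4.1e-04, edgeR).

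Of 17 other ERAD genes 1 rose in sh_PIP4K2B (HERPUD2, log2 fold change 0.64, SE 0.10, adjusted p = 0.0039, edgeR), and 2 rose and 2 fell in Soft, led by OS9 (log2 fold change 0.91, SE 0.11, adjusted p = 2.0e-04, edgeR) and UBE2G2 (log2 fold change -1.12, SE 0.12, adjusted p = 9.0e-05, edgeR). Of 9 other regulators none was called in sh_PIP4K2B in edgeR (3 at an unadjusted p below 0.05, 2 in DESeq2), and in Soft ATF6B rose (log2 fold change 1.05, SE 0.13, adjusted p = 1.9e-04, edgeR) and CREB3 fell (log2 fold change -0.53, SE 0.08, adjusted p = 9.0e-04, edgeR). Of 8 genes of the mitochondrial stress response none was called in sh_PIP4K2B in edgeR (2 at an unadjusted p below 0.05, 0 in DESeq2) and 4 fell in Soft, most of all the chaperonin HSPD1 (log2 fold change -1.15, SE 0.14, adjusted p = 2.4e-04, edgeR).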

How the data were processed

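hTERT_RPE1 cells were profiled in 9 RNA-seq libraries: 3 Control, 3 sh_PIP4K2B and 3 Soft. Per the authors, mRNA libraries were stranded and paired reads of 75 nt were aligned with STAR 2.6.1d to GRCh38/hg38. The deposited values are estimated counts, without scaling or pooling. Salmon is also named in the submitters' processing notes. Which tool assigned reads to genes, its annotation and its strand setting are not given in the sources used here. Of the values 12.3% were not whole, and all were rounded.

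After filterByExpr, the quasi-likelihood test of edgeR 4.0.16 (R 4.3.3) with TMM factors was run on all libraries together, with Benjamini-Hochberg adjustment over all 13784 genes tested and a threshold of 0.01. Each SE is the log2 fold change over the root of its F value. The fit was tested on simulated data in which each gene had the same dispersion in all conditions. That test therefore cannot show how the fit behaves with the wider spread of the sh_PIP4K2B libraries. Comparisons were sh_PIP4K2B and Soft against Control and Soft against sh_PIP4K2B. The members and gene lists were chosen with earlier results of these data known. Detailed values are given for the 10 sensors and transcription factors, HSPA5, and up to 3 called members per group with the largest change against Control; from the lists of other pathway and p53 target genes the largest called rise and fall against Control are named. Values of further members were added after the results were seen, so that every group is shown. The floor of 3 counts equals 0.131 to 0.148 CPM in a library. Gene positions and overlaps come from GENCODE on GRCh38, promoters from RefSeq. Alternatives were other filters and scalings, DESeq2 1.42.0, fits of only 2 conditions, the replicate number as a block, a threshold of 0.05, and leaving out each library.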

Additional observations from a re-analysis of the deposited data

Results flagged for a closer look

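A difference between the conditions, tested directly, marked 8 members whose log2 fold changes against Control had opposite signs in sh_PIP4K2B and Soft. The log2 fold change of Soft against sh_PIP4K2B (edgeR, adjusted p below the threshold) was -2.64 in ATF3, -2.30 in SESN2, -1.18 in DNAJB9 and -1.32 in SERP1, and 1.30 in PHGDH, 0.94 in PDIA4, 0.75 in CALR and 0.98 in CRELD2. Against Control, ATF3, SESN2 and CRELD2 were called in sh_PIP4K2B and SERP1 in Soft, and none of the 8 was called in both. PHGDH, DNAJB9, PDIA4 and CALR were called against Control in neither condition, so opposite signs were not established for any of the 8. In sh_PIP4K2B the log2 fold change was -0.27 in PHGDH (adjusted p = 0.58, edgeR) and 0.17 in SERP1 (adjusted p = 0.49, edgeR). The sign of SESN2 in Soft was not settled: its log2 fold change was -0.07 (adjusted p = 0.89, edgeR) and ran from -0.23 to 0.067 over the alternatives. With 3 libraries in each condition, single libraries were not searched for extreme values.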

How the results depend on the processing

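The calls of sh_PIP4K2B against Control depended most on the processing. Against 6 members and 763 genes, DESeq2 called 11 and 2066, scaling by library size only called 3 and 667, and a threshold of 0.05 called 2375 genes. A fit of the 2 conditions alone called 0 members and 5 genes in edgeR (14 members at an unadjusted p below 0.05). Leaving out 1 library at a time gave 0 to 13 members and 66 to 2013 genes. In Soft against Control (9 members, 4217 genes) the fit of 2 conditions called 37 members and 9601 genes, the threshold of 0.05 called 6498 genes, and leaving out 1 library gave 4 to 18 members and 2506 to 6373 genes. In Soft against sh_PIP4K2B (12 members, 4135 genes) DESeq2 called 20 members and 5403 genes. The fit of 2 conditions called 4 members and 2183 genes in this comparison, and the threshold of 0.05 called 23 members and 6372 genes. Leaving out 1 library gave 4 to 20 members and 2350 to 5374 genes. A fit without a condition has its own estimate of the spread and fewer libraries.

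Replicate numbers were not used to pair libraries, since deviations of same-numbered libraries correlated between -0.101 and 0.0421. With the replicate number as a block edgeR called 0 members in sh_PIP4K2B (17 at an unadjusted p below 0.05) and 295 genes, 7 members in Soft (25.7% of all genes), and 10 in Soft against sh_PIP4K2B (24.4%). Scaling by library size only moved the median log2 fold change of all genes to 0.141 in sh_PIP4K2B and 0.119 in Soft, and moved the share of called genes that were higher in Soft from 51.7% to 62.9%.

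Values near 0 that were not called changed sign. Scaling by library size only gave log2 fold changes of 0.044 in PSPH, 0.035 in AARS, 0.070 in CANX and 0.073 in HYOU1 for sh_PIP4K2B, 0.10 in CEBPG, 0.040 in SESN2 and 0.057 in DNAJB11 for Soft, and 0.00633 in EIF2AK3 for Soft against sh_PIP4K2B. The upper quartile gave 0.050 in CEBPG and 0.0057 in DNAJB11 for Soft, and 0.066 in EIF2AK3, 0.037 in PSAT1 and 0.067 in SLC3A2 for the direct comparison. At least 10 counts in every library gave 0.016 in CEBPG for Soft, and 0.011 in EIF2AK3 and 0.0089 in SLC3A2 for the direct comparison, where the replicate block gave 0.043 and 0.0091. Leaving out 1 library moved the log2 fold change in sh_PIP4K2B of ERN1 from -0.12 to 0.23, ATF6 from -0.027 to 0.24, XBP1 from -0.22 to 0.46, ASNS from -0.18 to 0.29, PSAT1 from -0.51 to 0.042, PSPH from -0.24 to 0.25, SLC7A11 from -0.32 to 0.56, WARS from -0.11 to 0.14, AARS from -0.30 to 0.085, CANX from -0.13 to 0.093, HYOU1 from -0.24 to 0.18, HERPUD1 from -0.078 to 0.58 and EDEM1 from -0.15 to 0.19. In Soft it moved that of CEBPG from -0.079 to 0.062, SESN2 from -0.23 to 0.067 and PPP1R15A from -0.031 to 0.10, and in the direct comparison that of EIF2AK3 from -0.22 to 0.34, XBP1 from -0.35 to 0.34, TRIB3 from -1.59 to 0.15, VLDLR from -0.21 to 0.63, PSAT1 from -0.27 to 0.30, SLC7A11 from -0.45 to 0.42, SLC3A2 from -0.20 to 0.10 and WARS from -0.048 to 0.19. In the comparisons in which the main fit called it, no member changed sign under any of the 17 alternatives. The cause of these changes was not tested.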
